A study of Mus musculus with 4 samples.

Results

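Integrins and adhesion molecules were described across 4 arrays of mouse bone marrow-derived macrophages, grown from marrow in M-CSF, a macrophage growth factor, for 5 days. The 9 genes were chosen by name: the integrin subunit genes Itga4, Itga5, Itgal, Itgam, Itgb1, Itgb2 and Itgb7, and the immunoglobulin superfamily genes Icam1 and Vcam1. They are 9 of 18193 genes with a probe set that names 1 gene, and 24 of 34945 such probe sets. The groups were Jmjd3-/- cells (knockout) with LPS, knockout cells unstimulated, wild-type cells with LPS and wild-type cells unstimulated, with 1 array each. LPS is lipopolysaccharide, a bacterial cell wall component that activates Toll-like receptor 4, given at 100 ng/ml for 4 h. Kdm6b encodes Jmjd3, an enzyme that removes the repressive H3K27me3 mark from histones. The sources used here do not give the deleted part of the gene, the age of the mice or whether the arrays came from separate animals or cultures.

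Integrins are cell surface receptors made of 1 alpha and 1 beta chain, and neither chain reaches the surface alone. On leukocytes the beta 2 integrins LFA-1 (Itgal with Itgb2) and Mac-1 (Itgam with Itgb2) bind ICAM-1, and Mac-1 also binds the complement fragment iC3b and fibrinogen. The alpha 4 chain pairs with beta 1 (VLA-4) or beta 7 and binds VCAM-1 and fibronectin, or MAdCAM-1 in gut vessels, while alpha 5 beta 1 is a fibronectin receptor. These pairs let monocytes stop on vessel walls, enter tissue and, as macrophages, spread and take up particles.

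All values are log2 intensities made with RMA (robust multi-array average). A level below log2 6 was treated as background, and 2-fold is a difference of 1 on this scale. Between 32.1% and 34.5% of probe sets reached log2 6 on an array, and array medians lay between 4.15 and 4.24. Of 10 macrophage marker genes, all 10 reached log2 6 on the 4 arrays, among them Csf1r and Adgre1, and their summed linear intensity lay between 55923 and 60308 in knockout and between 55844 and 56873 in wild type. Of these 10, 1, Fcgr1, rose in the knockout by 0.76 (limma, Benjamini-Hochberg adjusted p = 0.0325) and 0 fell. For genotype 5 had an unadjusted limma p below 0.05, against 24.4% of all genes tested. With LPS 2 of the 10 rose and 3 fell. Markers of some other cells also differed between the genotypes. Of 12 neutrophil and granulocyte precursor genes 10 rose in the knockout, such as Ngp, and 1, Mmp8, fell, with summed linear intensities of 38536 with LPS and 38324 unstimulated in knockout, and 4780 and 3478 in wild type. Of the 10, 6 lay under log2 6 on both wild-type arrays and so were tested only through the knockout. Of 14 stromal genes 12 rose, such as Col3a1, 6 of them under log2 6 on both wild-type arrays, with sums, in the same order, of 26326 and 31051 in knockout and 1026 and 812 in wild type. The T cell genes Cd3d, Cd3e and Cd3g, 3 of 4 tested T, B and NK genes, fell and lay under log2 6 on both knockout arrays, with sums over the list's 10 measured genes of 232 and 330 in knockout and 570 and 469 in wild type. Bulk RNA cannot tell fewer cells of a type from less RNA per cell. Kdm6b itself differed by -0.46 between genotypes on its brightest probe set (limma, Benjamini-Hochberg adjusted p = 0.167), and with the deleted part unknown this value does not check the labels.

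The 9 genes showed 3 patterns. Vcam1, Itga4, Itga5 and Itgal rose with LPS over both genotypes, by 4.92-fold, 2.55-fold, 2.56-fold and 1.66-fold. The beta 2 integrin genes Itgal, Itgam and Itgb2 fell in the knockout over both LPS states, being 2.13-fold, 2.05-fold and 1.69-fold lower. Icam1 and Itgb7 had LPS differences that were unlike in the 2 genotypes, and Itgb1 passed neither test. Thus 4 of 9 members were called higher with LPS, against 11.2% of the 9385 genes tested, and 0 lower, against 18.8%. In the knockout 3 of 9 were called lower, against 3.12% of all genes, and 0 higher, against 6.39%. The members were chosen with earlier results of these data known, so such counts beside all genes are a description. At an unadjusted limma p below 0.05, 6 of 9 members passed for LPS, all higher, and 7 of 9 for genotype, of which 3 were higher and 4 lower, against 45% and 24.4% of all genes. The median LPS coefficient was 0.73 over the members and -0.22 over all genes, and the median genotype coefficient was 0.07 and 0.05. All 9 members exceeded log2 6 on the 4 arrays with their brightest probe set, so none entered the test through 1 group alone. Calls come from limma, fitted to all 4 arrays with additive terms for genotype and LPS and adjusted over all genes by the Benjamini-Hochberg (BH) method. That fit has 2 arrays per level and 1 residual degree of freedom, so its spread comes from how far the 2 LPS responses of a gene lie apart, shrunk towards that of all genes.

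**Figure D1:**
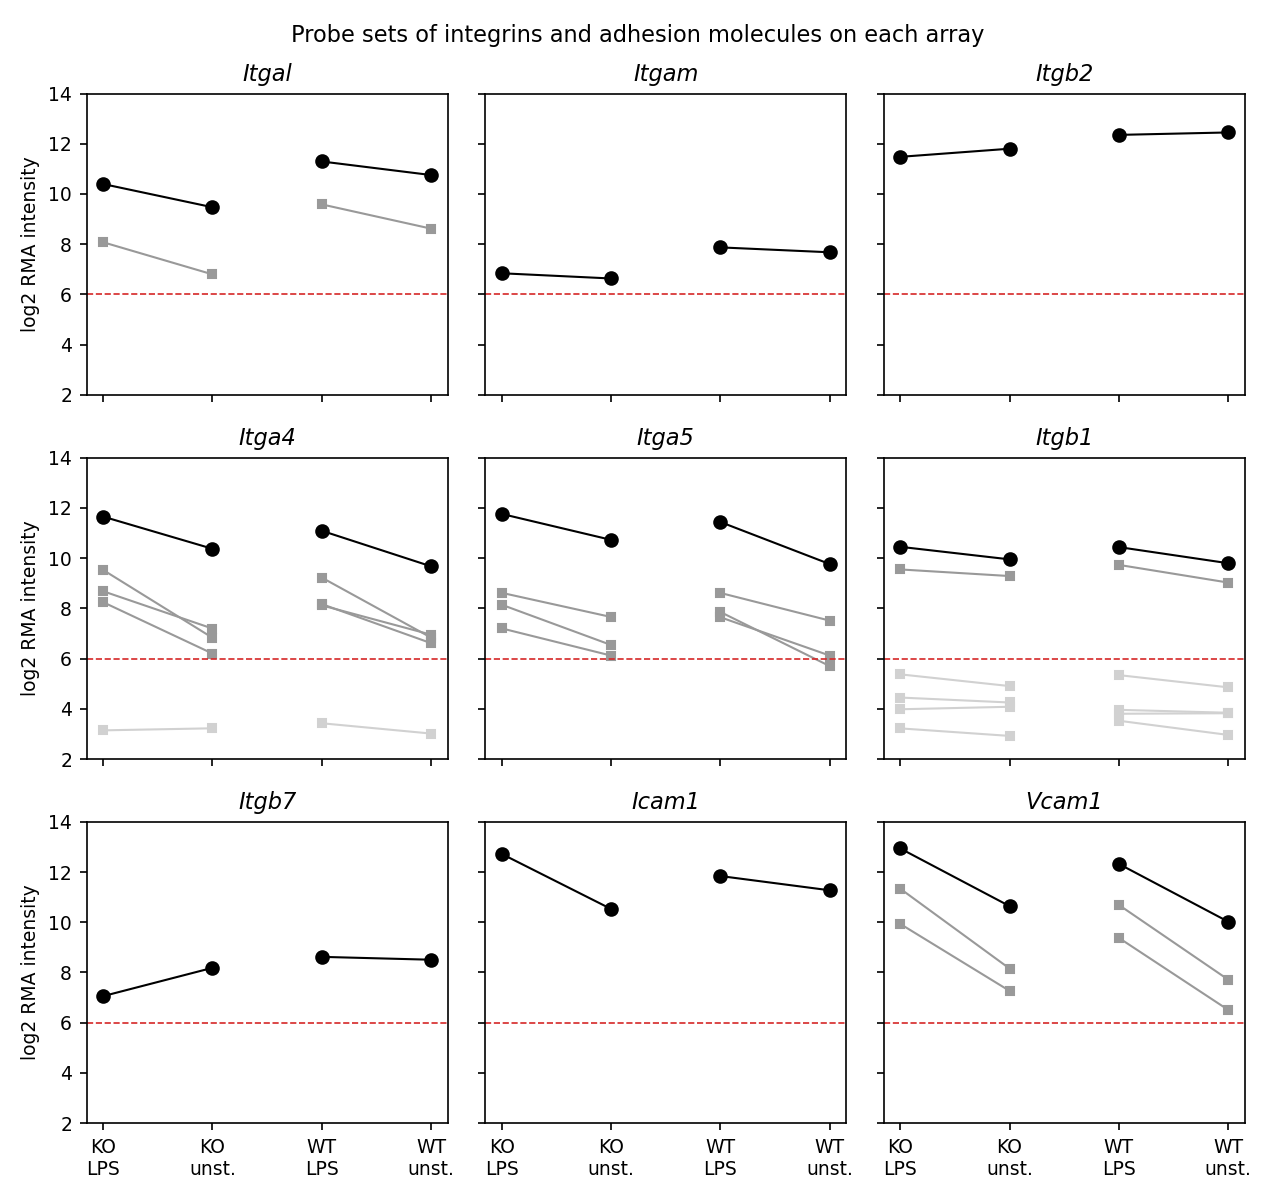
Log2 RMA intensity (y axis) of every probe set of the 9 genes on the 4 arrays (x axis, knockout KO left of wild type WT, LPS left of unstimulated). Black circles are the brightest probe set of a gene, dark grey squares other probe sets that reach log2 6 on an array, light grey squares those that do not, and the dashed line is log2 6. Lines join the 2 arrays of a genotype: the Vcam1 lines fall steeply from LPS to unstimulated in both genotypes, and the Icam1 line is steeper in KO than in WT.

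Vcam1 encodes VCAM-1, the counter-receptor of the alpha 4 integrins. Its brightest probe set read 12.94 with LPS and 10.64 unstimulated in knockout cells, and 12.32 with LPS and 10.02 unstimulated in wild-type cells. Both LPS arrays were above both unstimulated arrays. The LPS difference was 2.30 in the knockout and 2.30 in wild type, a coefficient of 2.30 ± 0.13 (SE; limma, BH adjusted p = 0.00238, higher in each genotype). The middle probe set differed with LPS by 3.18 in the knockout and 2.98 in wild type, and the dimmest by 2.67 and 2.87. All 3 probe sets thus showed a difference above 2-fold in each genotype. For genotype, the knockout array was higher by 0.62 with LPS and by 0.62 unstimulated, which did not pass (coefficient 0.62 ± 0.13 SE; limma, BH adjusted p = 0.0512). It was called in 2 of 8 alternative settings, with quantile normalization (limma adjusted p = 0.0253) and with every probe set tested (0.0405), and the adjusted p over the 8 lay between 0.0253 and 1.0. All 3 probe sets were higher in the knockout in both states, by 0.44 to 0.76. Bone marrow stromal cells are known to express Vcam1, and the stromal marker sums given above were higher in the knockout. Their part in the Vcam1 difference was not tested. Endothelial cells are known to express Vcam1 and Icam1 when inflamed. Of 10 measured endothelial genes, 2 reached log2 6, and Eng (1.03) and Kdr (1.22) rose with LPS, while the defining markers Cdh5, Tek and Emcn lay under log2 6 on all 4 arrays. The summed linear intensity of that list was 903 with LPS and 548 unstimulated in knockout cells, and 929 with LPS and 463 unstimulated in wild-type cells.

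Icam1 encodes ICAM-1, the ligand of LFA-1 and Mac-1. Its single probe set read 12.72 with LPS and 10.53 unstimulated in knockout cells, and 11.84 with LPS and 11.27 unstimulated in wild-type cells. The LPS arrays were again above the unstimulated ones, but the knockout held both the highest and the lowest of the 4 values. The LPS difference was 2.19 in the knockout (4.57-fold) and 0.57 in wild type (1.48-fold). The knockout response thus exceeded the wild-type response by 1.62, and 5.19% of 9385 genes had a knockout response exceeding the wild-type one by 2-fold or more. With 1 array per group this difference of responses has no test. The knockout minus wild type difference was 0.88 with LPS and -0.74 unstimulated. The LPS coefficient over both genotypes, 1.38 ± 0.39 (SE), did not pass (limma, BH adjusted p = 0.055), nor did the genotype coefficient of 0.07 (limma, BH adjusted p = 0.933). The LPS effect passed in 2 of 8 alternative settings, with quantile normalization (limma adjusted p = 0.0357) and with every probe set tested (0.0448), within a range of 0.0357 to 0.145. For Vcam1 the same difference of responses was -0.00 on the brightest probe set, 0.21 on the middle and -0.20 on the dimmest.

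The alpha chain genes of the fibronectin and VCAM-1 receptors came next in LPS response. Itga4 read 11.65 with LPS and 10.37 unstimulated in knockout cells, and 11.09 with LPS and 9.67 unstimulated in wild-type cells, on the brightest of 4 probe sets above log2 6. It rose by 1.35 ± 0.15 (SE; limma, BH adjusted p = 0.00815, higher in each genotype). The 4 probe sets agreed in direction, with LPS differences of 1.28 to 2.70 in the knockout and 1.17 to 2.39 in wild type. They did not agree on genotype. The brightest was 0.56 higher in the knockout with LPS and 0.70 higher unstimulated, whereas the other 3 lay between 0.08 and 0.56 with LPS and between -0.41 and 0.24 unstimulated. The genotype coefficient of 0.63 did not pass (limma, BH adjusted p = 0.0791).

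Itga5 read 11.76 with LPS and 10.73 unstimulated in knockout cells, and 11.44 with LPS and 9.76 unstimulated in wild-type cells. It rose by 1.35 ± 0.21 (SE; limma, BH adjusted p = 0.0139, higher in each genotype). The LPS difference was 1.03 in the knockout and 1.67 in wild type. In all 4 probe sets the knockout response was the smaller, the responses differing by -0.64 to -0.14. A dimmer probe set read 5.70, under log2 6, on the unstimulated wild-type array. Its wild-type LPS difference and its unstimulated genotype difference of 0.84 are thus against background. Unstimulated knockout cells were 0.96 higher on the brightest probe set but between -0.00 and 0.84 on the other 3, and the genotype coefficient of 0.64 did not pass (limma, BH adjusted p = 0.145). The brightest Itga5 probe set is of a class (s_at) that may detect more than 1 transcript. Itga4 and Itga5 were the closest pair among the 9 members, with a Euclidean distance of 0.25 between their mean-centred log2 profiles over 4 arrays.

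The common beta 1 partner had a smaller LPS coefficient. Itgb1 read 10.45 with LPS and 9.95 unstimulated in knockout cells, and 10.44 with LPS and 9.80 unstimulated in wild-type cells. Both LPS arrays were above both unstimulated ones, and the genotypes overlapped. The LPS coefficient of 0.57 ± 0.17 (SE) did not pass (limma, BH adjusted p = 0.0618). A dimmer probe set gave LPS differences of 0.26 in the knockout and 0.70 in wild type, and 4 further probe sets stayed under log2 6.

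The other partner of alpha 4 behaved differently. Itgb7, measured by a single probe set, read 7.06 with LPS and 8.18 unstimulated in knockout cells, and 8.62 with LPS and 8.51 unstimulated in wild-type cells. The knockout array with LPS stood apart below the other 3, and both knockout arrays were below both wild-type arrays. The LPS difference was -1.13 in the knockout and 0.11 in wild type, so that the responses differed by -1.24, and 4.73% of genes had a difference of 2-fold or more in that direction. The knockout minus wild type difference was -1.56 with LPS, a 2.96-fold lower value, and -0.32 unstimulated. Neither coefficient passed, at -0.51 ± 0.34 (SE) for LPS and -0.94 ± 0.34 (SE) for genotype (limma, BH adjusted p = 0.291 and 0.177). Beta 7 is also known on lymphocytes and mast cells, whose markers Cd3e (-3.06) and Fcer1a (-3.75) fell in the knockout. The B cell gene Cd79b differed by 1.98 and did not pass (limma, BH adjusted p = 0.11), with a level under log2 6 on 3 of 4 arrays. Of 7 tested mast cell, basophil and eosinophil genes 4 fell and 1, Prg2 (4.91), rose. Of the 4, 3 lay under log2 6 on both knockout arrays, Fcer1a among them, and Prg2 lay under it on both wild-type arrays. Kit, Ms4a2 and Il5ra lay under log2 6 throughout. Summed linear intensities of the list were 2057 with LPS and 649 unstimulated in knockout, and 2022 and 881 in wild type. Hdc, the brightest of the list on both LPS arrays, rose by 4.02 with LPS and weighs most in the sums with LPS. It read 10.44 with LPS and 5.86 unstimulated in knockout, and 9.53 and 6.07 in wild type. On the unstimulated arrays Prg2 (8.28) in knockout and Siglecf (8.11) in wild type were the brightest of the list. The part of lymphocytes and mast cells in the Itgb7 difference was not tested.

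**Figure D2:**
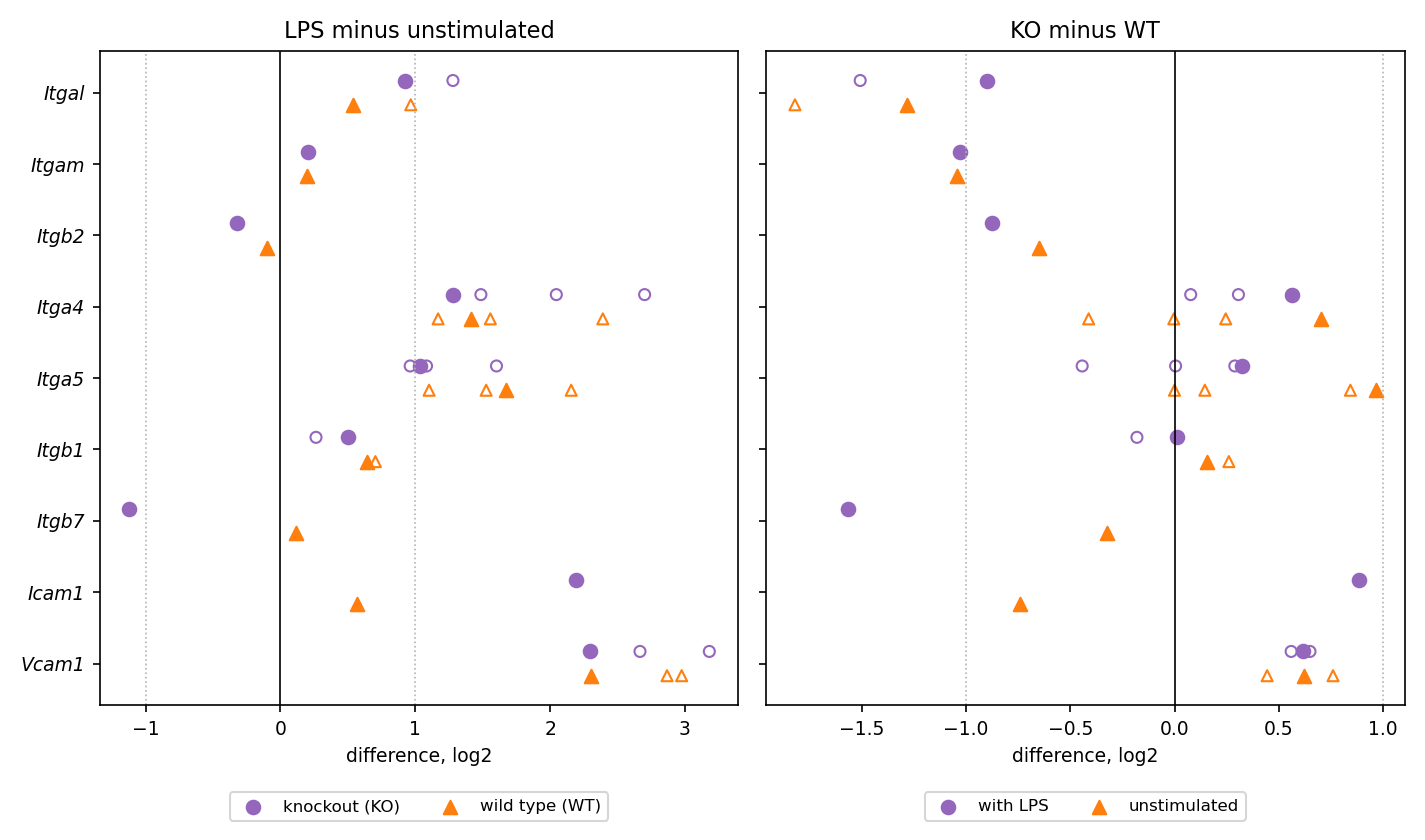
Differences in log2 intensity (x axes) for the 9 genes (y axis). Left, LPS minus unstimulated in knockout (purple circles) and wild type (orange triangles). Right, knockout minus wild type with LPS (purple circles) and unstimulated (orange triangles). Filled symbols are the brightest probe set, open symbols other probe sets that reach log2 6 on an array, and dotted lines mark 2-fold. Icam1 and Itgb7 have the widest gaps between filled symbols, and Itgal, Itgam and Itgb2 lie left of 0 in the right panel.

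The beta 2 integrin genes were lower in the knockout. Itgal, the alpha chain of LFA-1, read 10.40 with LPS and 9.47 unstimulated in knockout cells, and 11.29 with LPS and 10.75 unstimulated in wild-type cells. Both knockout arrays were below both wild-type arrays. It fell in the knockout by 1.09 (SE 0.18; limma, BH adjusted p = 0.0295, lower in each LPS state). The difference was -0.90 with LPS and -1.28 unstimulated, and on the dimmer probe set -1.51 and -1.82. Itgal also rose with LPS, by 0.73 ± 0.18 (SE; limma, BH adjusted p = 0.0403), with differences of 0.93 in the knockout and 0.54 in wild type, and of 1.28 and 0.97 on the dimmer probe set. The LPS call was lost in 2 of 8 alternative settings, those without the intensity trend and without a genotype term.

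Itgam, the alpha chain of Mac-1 and the CD11b surface marker of myeloid cells, read 6.84 with LPS and 6.64 unstimulated in knockout cells, and 7.87 with LPS and 7.68 unstimulated in wild-type cells. It fell in the knockout by 1.04 (SE 0.19; limma, BH adjusted p = 0.0385), by 1.03 with LPS and by 1.04 unstimulated. Its single probe set was the dimmest of those used for the members, less than log2 1 above the background limit in the knockout. It did not pass for LPS, with differences of 0.21 in the knockout and 0.19 in wild type (limma, BH adjusted p = 0.451). Neutrophils and their precursors also carry Itgam, and their marker sums given above were higher in the knockout. Their part in the Itgam difference was not tested.

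Itgb2, the beta chain that LFA-1 and Mac-1 share, read 11.48 with LPS and 11.80 unstimulated in knockout cells, and 12.35 with LPS and 12.45 unstimulated in wild-type cells. It fell in the knockout by 0.76 (SE 0.12; limma, BH adjusted p = 0.0265), by 0.87 with LPS and by 0.65 unstimulated. Its LPS differences of -0.32 in the knockout and -0.10 in wild type did not pass (limma, BH adjusted p = 0.235). Thus all 3 beta 2 members had both knockout arrays below both wild-type arrays, as did Itgb7, 4 of 9 members against 12.8% of all genes, and for 0 of 9 were both knockout arrays above both wild-type arrays, against 17.7%. These 3 genotype calls rest on the intensity trend in limma: without it the limma adjusted p was 0.0655 for Itgal, 0.0534 for Itgam and 0.112 for Itgb2. Over the alternative settings it ranged over 0.0188 to 0.702, 0.0232 to 0.399 and 0.0186 to 0.352 for the 3 genes in that order. T cells express Itgal and Itgb2, and the fall of the Cd3 genes given above was alongside. Dendritic cells carry the beta 2 integrins too, and of 4 tested dendritic cell genes 2, Ccr7 (-2.69) and Dpp4 (-1.31), fell in the knockout and 3 rose with LPS. On the unstimulated knockout array Ccr7 (3.17) and Dpp4 (5.74) lay under log2 6, so their unstimulated genotype differences are against background. The sums of the 8 measured genes were 4282 with LPS and 2567 unstimulated in knockout cells, and 4126 with LPS and 1330 unstimulated in wild-type cells. Bst2, the brightest of the list on every array, weighs most in those sums. It read 11.94 with LPS and 11.25 unstimulated in knockout cells, and 11.50 and 9.98 in wild-type cells. Flt3, Siglech, Xcr1 and Cd209a stayed under the background limit on every array. The part of T cells and dendritic cells was not tested.

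**Figure D3:**
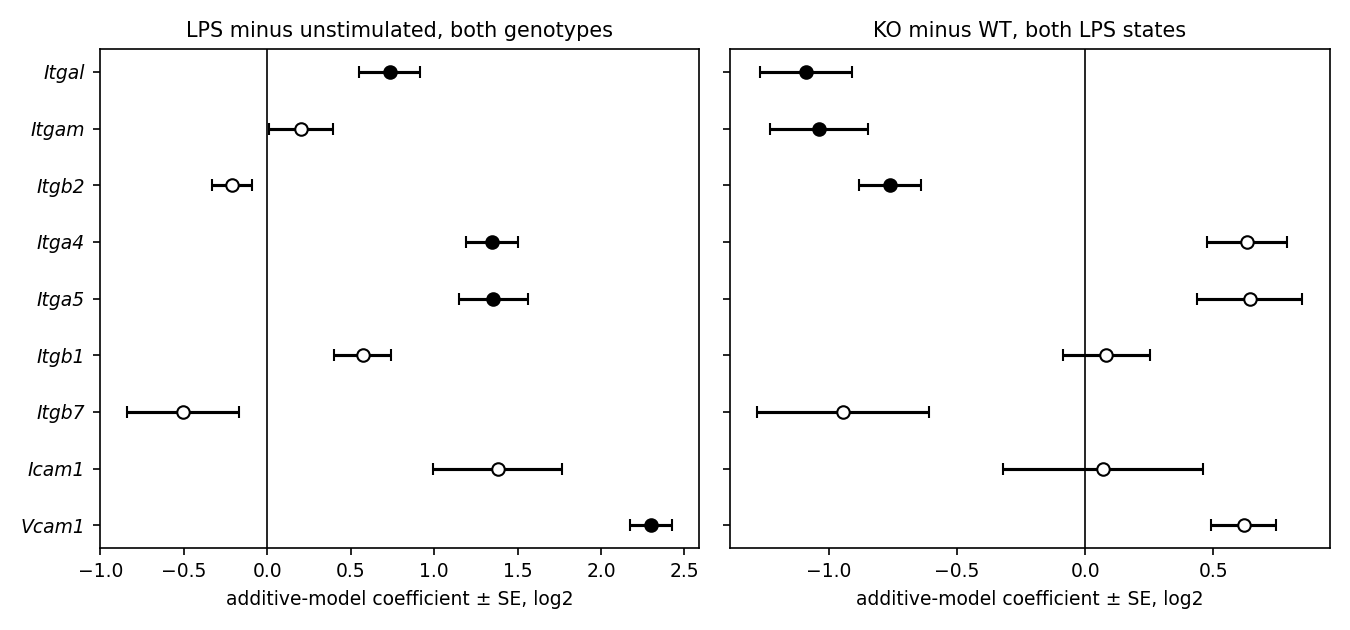
Coefficients of the additive limma model for the 9 genes, in log2 (x axes), with standard errors as bars. Left, LPS minus unstimulated over both genotypes. Right, knockout minus wild type over both LPS states. Filled circles have a limma BH adjusted p below 0.05: Vcam1, Itga4, Itga5 and Itgal on the left, and Itgal, Itgam and Itgb2 on the right.

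Counted by single comparisons at 2-fold, with no test, 4 of 9 members were higher with LPS in the knockout (Itga4, Itga5, Icam1 and Vcam1), against 11% of genes, and 1 was lower (Itgb7), against 15.5%. In wild type 3 were higher (Itga4, Itga5 and Vcam1), against 9.86%, and 0 lower, against 14.3%. Between genotypes with LPS, 2 were lower in the knockout (Itgam and Itgb7), against 5.65%, and 0 higher, against 9.76%. Unstimulated, 2 were lower (Itgal and Itgam), against 5.74%, and 0 higher, against 9.54%. Both LPS arrays were above both unstimulated arrays for 5 of 9 members, against 19.8% of genes, and below them for 0 of 9, against 41.9%. Comparisons that share an array are not independent of each other.

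Promoter sequence was examined for the members with a window that differed most with LPS and, beside them, for Itgam, the member with the smallest LPS coefficient. Of the 9 members 6 had a window in the RefSeq promoter table of build GRCm38.p6, from which the 250 bases before each gene's start are given 5′ to 3′. Capitals mark matches to the motifs searched on both strands: GGAANTTCC and GGG, any 2 bases, T, any 2 bases, CC for NF-kB, TGANTCA for AP-1, GAAA, any 2 bases, GAAA for interferon response elements, GAGGAA for the myeloid factor PU.1, and TATAAA. Vcam1, Itgal and Itgb2 had no window there.
Icam1, chr9:21015690-21015939, plus strand: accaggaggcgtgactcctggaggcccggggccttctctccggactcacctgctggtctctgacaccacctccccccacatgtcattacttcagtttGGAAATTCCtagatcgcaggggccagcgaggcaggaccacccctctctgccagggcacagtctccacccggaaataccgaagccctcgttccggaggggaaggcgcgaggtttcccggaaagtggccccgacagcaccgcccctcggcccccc
Itga4, chr2:79255176-79255425, plus strand: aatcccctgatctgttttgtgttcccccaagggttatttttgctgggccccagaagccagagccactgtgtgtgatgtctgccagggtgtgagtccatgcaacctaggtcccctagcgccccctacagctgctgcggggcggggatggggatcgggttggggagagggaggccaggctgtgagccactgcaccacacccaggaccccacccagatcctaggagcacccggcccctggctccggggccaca
Itga5, chr15:103366792-103367041, minus strand: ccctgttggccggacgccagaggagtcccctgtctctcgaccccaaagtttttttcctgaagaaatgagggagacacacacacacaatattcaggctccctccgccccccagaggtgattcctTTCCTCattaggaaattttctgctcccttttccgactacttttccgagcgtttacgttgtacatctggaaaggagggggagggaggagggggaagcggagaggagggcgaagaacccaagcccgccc
Itgam, chr7:128062390-128062639, plus strand: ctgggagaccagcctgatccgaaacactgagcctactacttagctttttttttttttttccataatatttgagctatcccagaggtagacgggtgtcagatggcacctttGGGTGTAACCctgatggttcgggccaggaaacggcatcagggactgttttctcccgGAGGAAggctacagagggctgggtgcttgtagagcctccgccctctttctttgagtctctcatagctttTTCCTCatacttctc
Icam1 held GGAAATTCC, a match to GGAANTTCC at position -153 counted from the gene's start. This motif was in 0.813% of 32851 windows, some genes having several windows. Itga4 had no match in this window. Itga5 had TTCCTC, the PU.1 motif on the other strand. Itgam had that motif on each strand and GGGTGTAACC, a match to the other NF-kB motif. The PU.1 motif was in 23.3% of windows and that NF-kB motif in 15.9%. Itgb1 held GAGGAA, Itgb7 held none of the motifs, and AP-1, interferon and TATA motifs (6.75%, 2.98% and 12.4% of windows) were in none of the 6 windows. A match describes letters and not binding.

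Other integrin chains measured here included partners and neighbours of the members. Of 6 further alpha chain genes tested, 1 fell with LPS, while 1 rose and 2 fell in the knockout. Itgax, the CD11c chain that also pairs with Itgb2 and lies next to Itgam on mouse chromosome 7 in the gene order of GRCm38.p6, read 9.98 with LPS and 9.90 unstimulated in knockout cells, and 12.35 and 12.04 in wild-type cells. It fell in the knockout by 2.25 (limma, BH adjusted p = 0.00246), the same direction as the 3 beta 2 members. Itga1, a collagen receptor chain, fell by 1.54 in the knockout. Itga6, a laminin receptor chain, rose by 2.26 in the knockout and fell by 1.88 with LPS. Itgav, a vitronectin receptor chain, did not pass for either (0.27 for genotype and 0.25 for LPS). Of the beta chains, Itgb3 (3.08) and Itgb5 (1.07), both partners of alpha v, rose in the knockout, and Itgb5 fell by 1.90 with LPS. Itgb3 lay under log2 6 on both wild-type arrays, so its difference is against background.

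Among 9 tested immunoglobulin superfamily adhesion genes outside the members, 2 rose and 2 fell with LPS, and 2 rose in the knockout. Alcam (0.45) and Cd47 (0.69), an integrin-associated protein, rose with LPS, and Cadm1 (-1.02) and Cd84 (-0.92) fell. Ncam1 (3.10) and Cadm1 (1.76) rose in the knockout. Icam2, another LFA-1 ligand, did not pass (-0.47 for LPS and -0.18 for genotype). Of 8 tested genes of selectins, their ligands and hyaluronan receptors 0 passed in limma for LPS or genotype after adjustment. At an unadjusted limma p below 0.05, 3 passed for LPS and 2 for genotype, against 45% and 24.4% of all genes. Cd44 was at 0.56 for LPS and -0.22 for genotype.

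Inside the cell, integrins are switched on by talin and kindlin. Of 23 tested adhesion-site genes 2 rose and 2 fell with LPS, and 5 rose and 1 fell in the knockout. Fermt3, the kindlin of blood cells, fell by 1.15 with LPS (limma, BH adjusted p = 0.0172), and Tln1, the main talin, did not pass (0.16 for LPS and 0.35 for genotype). Zyx (1.48) and Filip1l (1.11) rose with LPS, and Tns1 (-2.45), a tensin gene under log2 6 on both LPS arrays, fell. In the knockout Fermt2 (4.40), Tgfb1i1 (4.00), Parva (4.04) and Tln2 (2.77) rose and lay under log2 6 on both wild-type arrays, so that their differences are against background. The stromal marker sums were higher there too, and their part was not tested. Filip1l (-1.13) fell in the knockout. Of 25 signalling genes 3 rose and 1 fell with LPS. Src (2.29), Syk (0.62) and Rap1b (0.43), which encode kinases and a small GTPase acting at integrins, rose, and Rassf5 (-1.28), a Rap1 effector, fell. Src lay under log2 6 on both unstimulated arrays, so its LPS difference is against background. In the knockout Fyb (0.74) rose and Src (-1.88) fell. The unstimulated part of the Src genotype difference (-1.76) lay between values that were both under log2 6. The Src genotype call held in 5 of 8 alternative settings. The Syk call held in 1 of 8 alternative settings, the limma adjusted p lying between 0.0419 and 0.209.

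Of 11 tested integrin ligands in matrix and plasma 7 rose and 1 fell in the knockout. For LPS 0 passed in limma, and 1 had an unadjusted p below 0.05, against 45% of all genes. Of the 7 that rose in the knockout, 4 lay under log2 6 on both wild-type arrays and so were tested only through the knockout. Among them were Postn (5.37), Lamb1 (4.43) and Nid1 (4.33), whose differences are against background. Ccn1 (4.49) rose and was above log2 6 on the 4 arrays. Postn is also in the stromal marker list, whose sums were higher in the knockout and whose part was not tested. Fn1, the fibronectin ligand of alpha 4 and alpha 5 integrins, read 11.19 with LPS and 11.57 unstimulated in knockout cells, and 12.04 and 12.10 in wild-type cells. It fell in the knockout by 0.69 (limma, BH adjusted p = 0.0493), a call that held in 3 of 8 alternative settings (limma adjusted p between 0.039 and 0.517). With its probe sets averaged the Fn1 genotype coefficient was -0.25. The Fn1 LPS coefficient, -0.22 on the brightest probe set, was then -0.88 and passed (limma, BH adjusted p = 0.0417). Of 13 tetraspanins and partners 1 rose and 1 fell with LPS, Cav1 (3.37) and Tspan4 (-1.09), and 1 rose and 1 fell in the knockout, Tspan4 (1.38) and Lgals3 (-0.44). The Cav1 LPS difference was 1.60 in the knockout and 5.15 in wild type, where the unstimulated value of 5.21 was under log2 6. Its knockout minus wild type difference was -2.47 with LPS and 1.08 unstimulated. The Cav1 LPS call held in 4 of 8 alternative settings (limma adjusted p between 0.0168 and 0.132). Over all 8 lists 97 genes were tested. Among all 9385 genes tested, 11.2% were called higher and 18.8% lower with LPS, and 6.39% higher and 3.12% lower in the knockout.

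**Figure D4:**
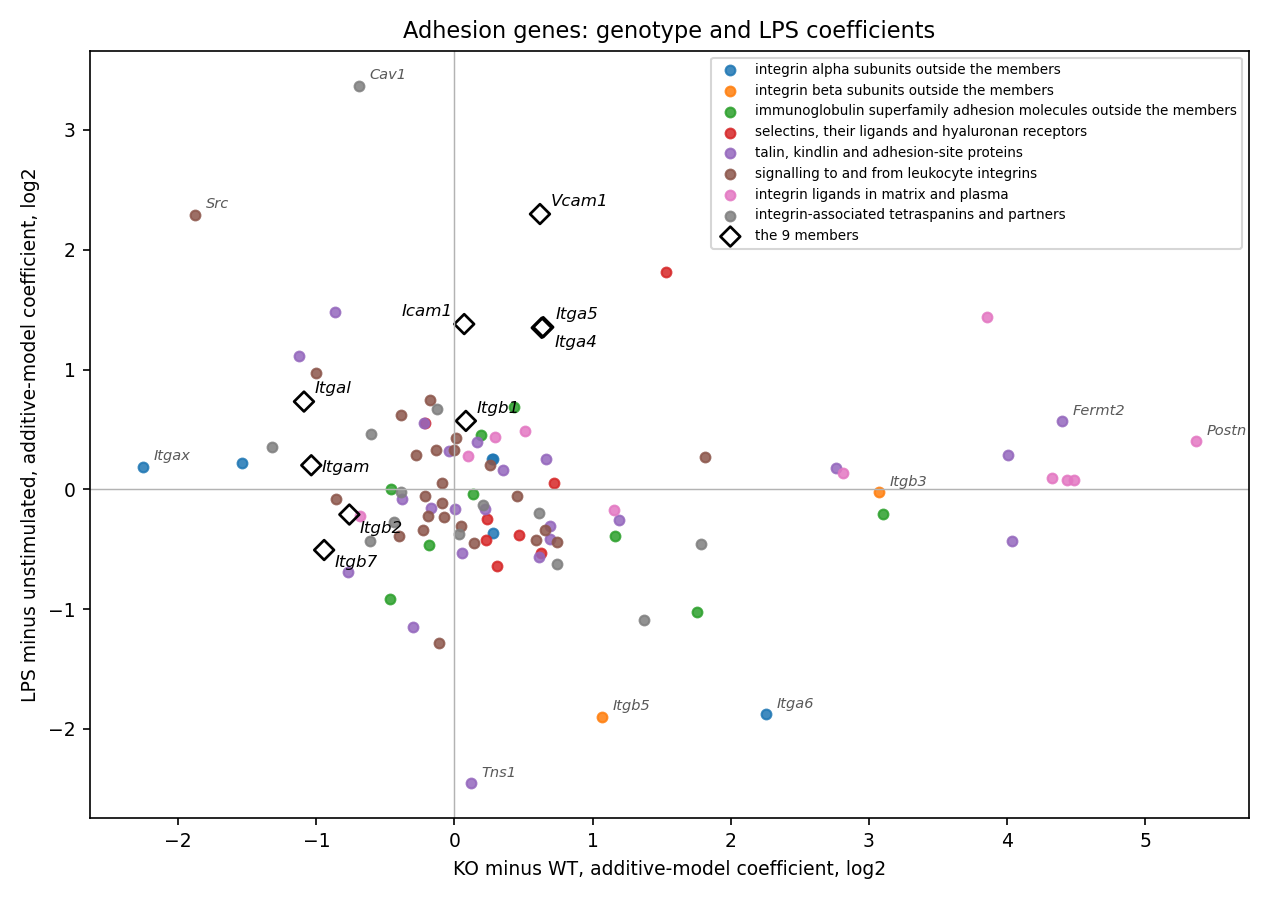
Additive-model coefficients in log2 of 97 adhesion genes (coloured points, by list) and of the 9 members (open diamonds). The x axis is knockout minus wild type and the y axis LPS minus unstimulated. Vcam1, Itga4, Itga5 and Icam1 lie above 1 on the y axis, the beta 2 members lie left of 0 with Itgax, and matrix genes such as Postn lie far to the right.

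Genes with the most similar profiles were taken by Euclidean distance between mean-centred log2 values over 4 arrays, for the 7 members with a range of log2 1 or more. Icam1 was closest to Mob3b (0.13), Ndufb1 (0.20) and Asb13 (0.26). Vcam1 was closest to Parp8 (0.24), Il18 (0.24) and Nectin2 (0.25), the last an immunoglobulin superfamily adhesion gene too. Itga4 was closest to Intu (0.16), Hk1 (0.24) and Irf8 (0.24), and Itga5 to Intu (0.17), Itga4 (0.25) and Akna (0.25). Intu reached log2 6 on 1 of the 4 arrays, so its likeness to Itga4 and Itga5 is read mostly from background values. Itgal was closest to Pilrb1 (0.08), Ddx19b (0.16) and Ifitm1 (0.17). Itgam was closest to Slc25a32 (0.10), Anpep (0.10) and Snapc1 (0.15), and Itgb7 to Tbc1d9 (0.06), Rccd1 (0.10) and Pkn3 (0.12). Ddx19b reached log2 6 on 1 array, Rccd1, Pkn3 and Nectin2 on 2 and Ndufb1 on 3. Over 4 arrays such likeness is a description.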

How the data were processed

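RNA of M-CSF-grown bone marrow macrophages was hybridised to Affymetrix arrays, 1 array for each of 4 groups. The authors deposited log2 intensities from RMA, per the submitters' processing notes, which give no version. Of 45101 probe sets, 34945 named 1 gene in the platform annotation and 34741 of these matched the gene table of GRCm38.p6. For each of 18193 genes the probe set brightest on average was kept. The 9385 genes at log2 6 or more on an array were fitted with limma 3.58.1 in R 4.3.3, with additive terms, intensity trend and a prior of 3.84 degrees of freedom, with calls at a BH-adjusted (Benjamini-Hochberg) p under 0.05. The fit was tested on simulated data with independent noise and no set difference between LPS responses. That test cannot show how calls behave for genes whose LPS responses differ, such as Icam1, Itgb7 and Cav1. Other work used Python 3.11.15 with numpy 2.4.6 and pandas 2.3.3. The number of arrays limits the precision. With 1 array per group there is no replicate spread. The p-values rest on how far the 2 LPS responses of a gene lie apart on these arrays, shrunk towards that of all genes.

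The members, lists and tests were chosen with earlier results of these data known. The text names all members, in each pathway list up to 4 genes called for LPS and up to 4 called for genotype with the largest coefficients, and a few further genes fixed by name (such as Itgav, Icam2, Cd44, Tln1 and Fermt3). It also names some of the markers with the largest genotype differences. The other markers named were chosen after their values were seen. A few listed genes are not reported here. Alternatives changed the floor, the choice of probe set, the scaling, an added constant, the trend and the model terms. Of 4 tested erythroid and megakaryocyte genes 0 were called for genotype in limma, and 3 had an unadjusted p below 0.05, against 24.4% of all genes.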

Additional observations from a re-analysis of the deposited data

Results flagged for a closer look

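Icam1 differed between genotypes in opposite directions in the 2 LPS states, by 0.88 with LPS and by -0.74 unstimulated (knockout minus wild type). Itgb7 differed with LPS in opposite directions in the 2 genotypes, by -1.13 in the knockout and by 0.11 in wild type. With 1 array per group neither difference was tested, each rests on 1 probe set, and the wild-type Itgb7 value is small.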

How the results depend on the processing

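No setting turned the direction of a member's tested effect or of a difference of 2-fold or more, but the difference between LPS responses turned for Itga4 (0.098) and Vcam1 (0.00040) with averaged probe sets and for Itgam (-0.021) and Vcam1 (0.020) with 64 added. No paired analysis was possible because each group had 1 array and the labels give no replicate numbers. Leaving out an array leaves no residual degree of freedom, and the value is then the single difference given above. Adjusted limma calls of members depended most on the model. Without a term for the other factor, 0 members were called higher with LPS (in place of 4) and 0 lower in the knockout (in place of 3). That fit called 183 genes higher and 84 lower with LPS, in place of 1054 and 1769, and 100 higher and 11 lower in the knockout, in place of 600 and 293. Without the intensity trend 0 members were called lower in the knockout, and Itgal was not called for LPS (adjusted p = 0.0719). Itgam was also not called for genotype without a floor (adjusted p = 0.061), and at a floor of log2 8 it was not tested. Under quantile normalization and with every probe set as its own feature, 1 member, Vcam1, was called higher in the knockout, in place of 0, and Icam1 was called for LPS. With every probe set, 1981 were higher and 2879 lower with LPS and 520 lower in the knockout, since more features were tested.

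With a floor of log2 8, which tests fewer genes, 1166 genes were called lower with LPS, and 298 higher and 163 lower in the knockout. Averaging the probe sets of a gene gave 341 higher and 189 lower in the knockout. Of 2-fold counts, genes lower with LPS were 783 in the knockout with a floor of log2 8 and 745 with 64 added (main 1415), and 696, 649 and, with averaged probe sets, 788 in wild type (main 1233). Higher in the knockout with LPS were 382, 494 and 517 (main 842), and lower 305 and 319 with the floor and the constant (main 488). Unstimulated, 421, 521 and 557 were higher (main 863). For the difference of responses, 262 were higher with 64 added (main 487), and 209 and 175 lower (main 444). Members followed: with 64 added, 0 were lower with LPS in the knockout and 0 had a lower response, 1 (in place of 2) was lower in the knockout in each state, as with the floor of log2 8, and after quantile normalization 1 was higher unstimulated. Quantile normalization moved the median LPS coefficient of all genes by 0.06.

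Of 361 alternative values of members 329 kept their direction and call or moved by less than the standard error, 12 lost and 4 gained the call, and 16 moved. Of 538 of other named genes 468 were alike, 57 lost and 7 gained the call and 6 turned, none of them called with the settings of the report: for LPS Itga1 (-0.29) with averaged probe sets, Itgb3 (0.094) after quantile normalization and Lamb1 (-0.031) with 64 added, and for genotype Alcam (-0.0069) and Rap1b (-0.011) with averaged probe sets and Tns1 (-0.056) with 64 added. The causes were not tested.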
